A study of Mus musculus with 12 samples.

Results

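The Period genes Per1, Per2 and Per3 and the cryptochrome genes Cry1 and Cry2 encode the repressors of the mammalian circadian clock. These 5 genes were taken by gene symbol from the 23420 symbols counted in mouse liver, and all 5 were present. The livers came from C57BL/6 mice about 20 weeks old, collected at Zeitgeber time (ZT) 10, late in the light phase of a 12:12 light-dark cycle on normal chow. The groups of 3 mice each were wild type females (WTF), Siah2 KO females (KOF), wild type males (WTM) and Siah2 KO males (KOM), where Siah2 KO mice are homozygous for a germline deletion of Siah2, a ubiquitin ligase, in every tissue. Both genotypes were kept as related lines after heterozygotes were intercrossed, and mice carry the numbers of the labels. Transcripts were counted with a 3′ mRNA method (QuantSeq), which gives 1 tag per primed transcript near the poly(A) tail, so levels are given as CPM (reads scaled to a common library size), are not divided by transcript length and are not compared between genes.

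In the clock, the activators CLOCK and BMAL1 drive the Period and cryptochrome genes through E-box sequences, and PER and CRY proteins then enter the nucleus together and repress that drive. Casein kinases and ubiquitin ligases set how long PER and CRY persist. A second loop acts through D-box sequences, which DBP, TEF and HLF activate and NFIL3 represses. PER1 and PER2 are required for a stable rhythm, whereas loss of PER3 alone has a mild effect on behaviour, and in liver Per1 also responds to feeding and hormonal signals.

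The sequences just upstream of Per3 and Cry1 are shown because they differ in the clock motifs they hold, and because Per3 was the member that moved most. They are from RefSeq on GRCm38.p6, on the minus strand, written 5′ to 3′ up to the start of the gene's annotated span. The capitals mark each D-box core (TTATGNAA) in Per3, and the E-box (CACGTG) and the E-box-like element (CACGTT, read on the other strand) in Cry1.
Per3, chr4:151044708-151044915: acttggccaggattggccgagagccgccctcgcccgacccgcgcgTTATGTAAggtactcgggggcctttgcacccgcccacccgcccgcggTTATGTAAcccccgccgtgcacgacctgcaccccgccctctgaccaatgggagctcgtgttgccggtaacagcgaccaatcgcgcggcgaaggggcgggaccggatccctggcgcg
Cry1, chr10:85185055-85185304: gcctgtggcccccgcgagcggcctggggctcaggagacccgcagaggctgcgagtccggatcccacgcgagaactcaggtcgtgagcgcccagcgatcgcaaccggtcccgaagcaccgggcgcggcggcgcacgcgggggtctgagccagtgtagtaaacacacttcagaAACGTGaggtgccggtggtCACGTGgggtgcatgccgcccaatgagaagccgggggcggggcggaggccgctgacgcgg
In the 250 bases before the table's transcription start, which for Per3 lies a little inside the annotated span, and searched on both strands, Per3 held 2 D-box cores, 205 and 158 bases before the start, and no E-box or E-box-like element. Of 32851 promoter windows of the same length, 3.07% held at least 1 D-box core and 0.128% held at least 2. Cry1 held 1 E-box, found in 6.02% of windows, 60 bases before the start and an E-box-like element, found in 3.85%, 79 bases before it. Cry2 held an E-box-like element 166 bases before its start. Per1 had 2 windows, of which the first held an E-box 166 bases and a D-box core 24 bases before the start, and the second held neither. The motifs do not overlap each other, and a match describes the letters of these windows and not a bound site. Of the 5 members, 4 matched the RefSeq promoter table, and Per2 was not analysed for motifs.

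On GRCm38.p6, the assembly that matches the mm10 build of the submitters' processing notes, Per1 spans chromosome 11 from 69095108 to 69109965 and Per2 chromosome 1 from 91415977 to 91459351. Per3 spans chromosome 4 from 150997018 to 151044707, Cry1 chromosome 10 from 85131700 to 85185054 and Cry2 chromosome 2 from 92403646 to 92434085. The last part of the Per3 span overlaps Uts2, the gene of the peptide urotensin 2. The use of strand in counting was not stated, so reads of the pair cannot be told apart, and Uts2 was assigned 2 reads in all 12 libraries together. The noncoding gene D930015M05Rik, which lies inside the Cry2 span, was assigned 0 reads. The noncoding gene Gm35591, from 91443003 to 91457770 inside the Per2 span, was not analysed here.

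The libraries held from 1293688 to 4056144 counted reads, and members had between 4 reads (Cry1 in a male) and 128 reads (Per3 in a KOF mouse) in a library. Intervals given for single mice come from the count in 1 library and cover counting error only. Whether the reads carry molecular identifiers was not stated. WTF 1091 stood apart from the other wild type females, the chi-square per degree of freedom being 42.0 and 45.0 against them and 11.9 between those, so results that rest on it are given with and without it. The labels describe RNA pooled from several livers, while the tables carry a mouse number for each library and the study speaks of individuals, so each library was taken as 1 mouse. Siah2 itself lay between 11.5 and 17.0 CPM in WTF, 9.63 and 12.5 CPM in KOF, 16.8 and 27.1 CPM in WTM and 9.42 and 17.4 CPM in KOM. The position of these tags relative to the deleted exons was not stated, and they do not check the genotype. Hepatocyte markers (6 genes, among them Alb and Ttr) summed to between 25000 and 39300 CPM over the groups. The sum does not show each gene. Tat, 1 of the 6, was 37.9 to 311 CPM in WTF and 342 to 507 CPM in KOF. The ranges of the other genes of this list overlapped between WTF and KOF. In whole liver RNA, fewer cells of a type and less RNA per cell cannot be told apart.

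Per3 was the member with the clearest change. Its level was 11.2 CPM in WTF 1089, 5.40 CPM in WTF 1090 and 5.73 CPM in WTF 1091. In Siah2 KO females it was 29.8 CPM in KOF 1070, 47.1 CPM in KOF 1104 and 34.3 CPM in KOF 1105. Each Siah2 KO female therefore had more Per3 than each wild type female, and the counting intervals of the nearest pair, from 7.60 to 15.9 CPM in WTF 1089 and from 24.5 to 35.9 CPM in KOF 1070, did not touch. In males, Per3 was 6.88, 8.04 and 13.6 CPM in WTM 1055, 1086 and 1087 and 13.6, 13.0 and 7.15 CPM in KOM 1075, 1076 and 1081. The male groups overlapped, and no male reached the lowest Siah2 KO female. In order of mean level, Per3 was 7.44 ± 3.25 CPM (SD, n = 3) in WTF, 9.51 ± 3.60 CPM in WTM, 11.2 ± 3.56 CPM in KOM and 37.1 ± 9.01 CPM in KOF. The first 3 groups differed from their neighbours by less than the SD within a group, and the step of 25.8 CPM from KOM to KOF was larger than the largest SD.

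**Figure D1:**
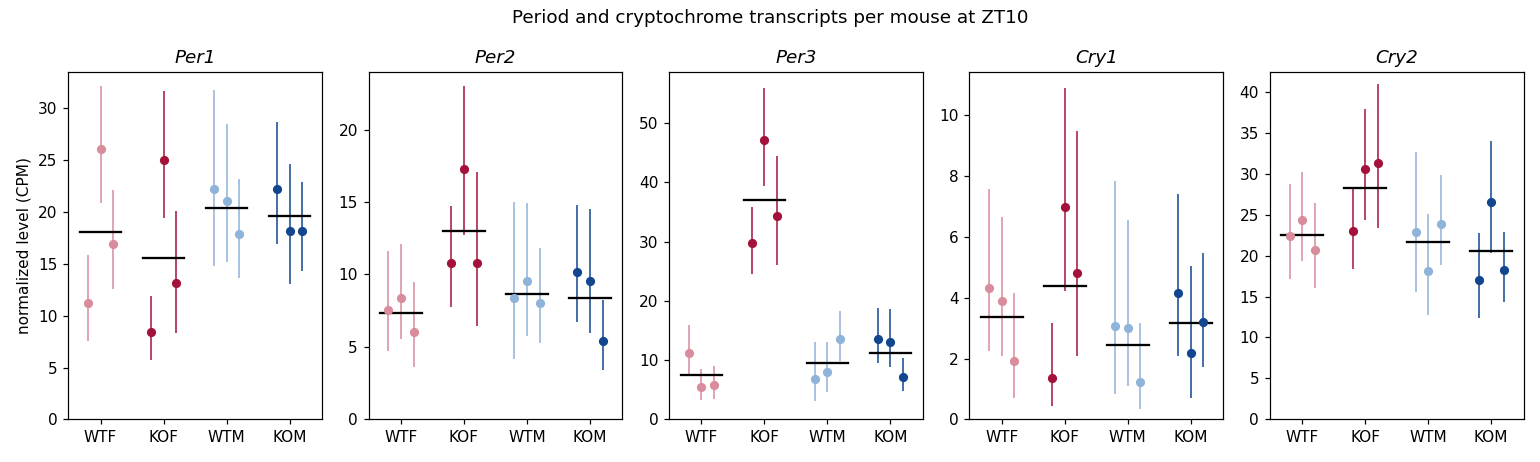
Normalized level (CPM, y axis, from 0, a scale of its own per gene) of Per1, Per2, Per3, Cry1 and Cry2 in each mouse, by group on the x axis. Points are mice in order of mouse number, vertical lines are exact 95% Poisson intervals for counting error, and black bars are group means of 3 mice. The 3 KOF points of Per3, at 29.8 to 47.1 CPM, lie above all other mice, which reach 13.6 CPM, while Per1, Cry1 and Cry2 overlap between groups.

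Whether SIAH2 loss altered the members within females was tested with edgeR's quasi-likelihood test over 9465 genes. Per3 was 4.96-fold higher in Siah2 KO females, or 2.31 on the log2 scale (standard error 0.35, 95% interval 1.52 to 3.10), and it ranked 5th by p value among all genes tested. Its adjusted p of 0.0793 did not pass 0.05, and neither did that of any other gene: 0 genes (percent called 0) passed by edgeR, whereas the unadjusted p lay under 0.05 for 1478 (15.6%). The study's own tool, DESeq2, called 3.60% of the genes that it gave an adjusted p, and Per3 was the 1 member among them (adjusted p = 2.24e-05 by DESeq2). Without WTF 1091, edgeR gave Per3 a log2 fold change of 2.18 and an adjusted p of 0.00527, in a fit that called 9.64% of all genes. The adjusted p by edgeR was between 0.0773 and 0.351 when any 1 of the other 5 females was left out, and the log2 fold change then stayed between 2.10 and 2.71.

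Per2, the other member that was higher in each Siah2 KO female than in each wild type female, changed less. It was 7.58 CPM in WTF 1089, 8.40 CPM in WTF 1090 and 6.05 CPM in WTF 1091. It was 10.8 CPM in KOF 1070, 17.3 CPM in KOF 1104 and 10.8 CPM in KOF 1105. The groups did not overlap, but the counting interval of KOF 1105, from 6.42 to 17.1 CPM, covered each of the wild type values except the lowest. The log2 fold change of Per2 in females was 0.81 (standard error 0.34, 95% interval 0.06 to 1.56), with an unadjusted p of 0.0369 from edgeR's quasi-likelihood test and an adjusted p of 0.280. Without WTF 1091 the adjusted p was 0.208, and DESeq2 gave 0.403. Among all genes tested in females, 11.4% were higher in each Siah2 KO female than in each wild type female, the pattern that 2 of the 5 members had.

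Per1, the Period gene that acute hormonal signals induce, was 11.2, 26.1 and 16.9 CPM in WTF 1089, 1090 and 1091 and 8.39, 25 and 13.2 CPM in KOF 1070, 1104 and 1105. Each female group held a low mouse and a high mouse, and the groups overlapped over almost their whole range. The log2 fold change was −0.24, with a 95% interval from −1.22 to 0.75 that covers both a fall and a rise (adjusted p = 0.847 by edgeR's quasi-likelihood test). The spread between females was far above that of counting alone, at a chi-square per degree of freedom of 9.44 in WTF and 14.7 in KOF, and between males it was 0.553 in WTM and 0.774 in KOM. The coefficient of variation of Per1 was accordingly 41.7% and 55.0% in the female groups and 10.8% and 11.8% in the male groups. Whether the spread differs between the sexes was not tested.

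Neither cryptochrome passed the test in females. Cry2, which encodes a repressor that binds CLOCK and BMAL1, was 22.4, 24.3 and 20.7 CPM in WTF 1089, 1090 and 1091. It was 23.0, 30.6 and 31.3 CPM in KOF 1070, 1104 and 1105. The means differed by 5.83 CPM, more than the larger SD of 4.59 CPM, but KOF 1070 fell within the wild type range, and the log2 fold change was 0.31 (standard error 0.25, 95% interval −0.24 to 0.87, adjusted p = 0.601 by edgeR's quasi-likelihood test). Cry1, the cryptochrome that peaks late in the cycle, had between 5 and 19 reads per female. Its level was 1.91 to 4.33 CPM in WTF and 1.35 to 7.0 CPM in KOF, and its log2 fold change of 0.31 had a 95% interval from −1.08 to 1.70. That interval covers both a fall and a rise. Reads were few, and the chi-square per degree of freedom of Cry1 was 1.52 in WTF and 6.48 in KOF, so the KOF mice also spread beyond counting error. Cry1 made up 12.8% ± 3.98 (SD, n = 3) of the cryptochrome tags in WTF, 12.5% ± 6.58 in KOF, 10.3% ± 4.84 in WTM and 14.1% ± 6.08 in KOM.

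In males, the same comparison was made over 8823 genes, of which 0 (percent called 0) passed by edgeR's quasi-likelihood test and 357 (4.05%) had an unadjusted p under 0.05. Of the members, 4 had enough reads to be tested, and Cry1, with 4 to 13 reads per male, did not. The log2 fold changes were −0.06 for Per1, −0.09 for Per2, 0.13 for Per3 and −0.10 for Cry2, with standard errors between 0.24 and 0.37. The 95% interval of Per3, from −0.65 to 0.92, lay below that of the females. Per2 was 8.41, 9.55 and 8.05 CPM in WTM 1055, 1086 and 1087 and 10.2, 9.55 and 5.42 CPM in KOM 1075, 1076 and 1081. DESeq2 called 0.0370% of genes in males and 0 members.

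**Figure D2:**
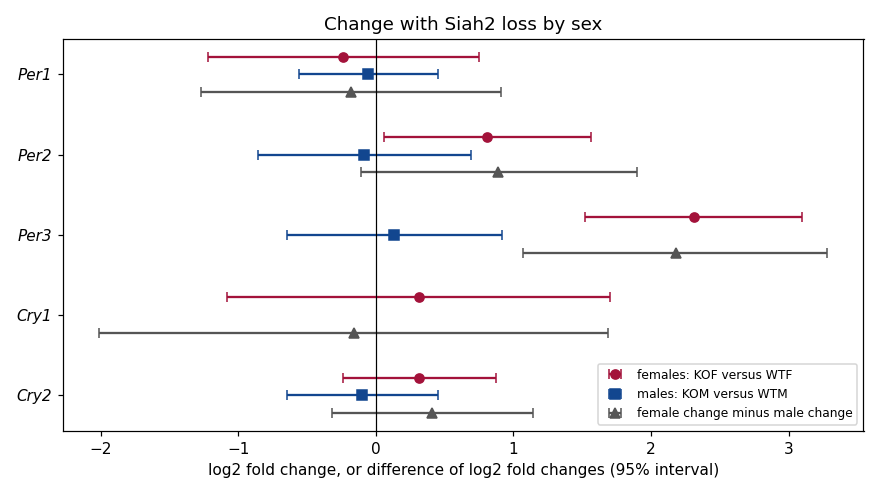
Log2 fold change of each member with SIAH2 loss (x axis) in females, in males, and the difference (female minus male), with 95% intervals from edgeR's quasi-likelihood fit. Cry1 was not tested in males. Per3 in females, at 2.31, and its difference between the sexes, at 2.18, are the values farthest from 0, while the male values lie between −0.10 and 0.13.

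The contrast that sets the female response against the male one was computed as their difference (female minus male) for 9806 genes, of which 0.255% passed by edgeR's quasi-likelihood test. Of the 5 members, 0 passed. The difference was 2.18 for Per3 (standard error 0.52, 95% interval 1.07 to 3.28, adjusted p = 0.0843 by edgeR) and 0.89 for Per2 (standard error 0.47, adjusted p = 0.426). It was 0.41 for Cry2, −0.16 for Cry1 and −0.18 for Per1, with standard errors of 0.34, 0.87 and 0.52. By DESeq2, which called 3.46% of genes, the difference of Per3 passed with an adjusted p of 0.0142. Without WTF 1091, edgeR gave Per3 a difference of 2.06 and an adjusted p of 0.0319, and called 5.15% of all genes. With any 1 of the other 11 mice left out, it stayed between 1.76 and 2.58, with adjusted p values between 0.0608 and 0.291. With the sexes combined, Per3 was at 1.47 on the log2 scale (standard error 0.41, edgeR adjusted p = 0.866), 0.0111% of genes passed, and 0 members did.

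Set between the sexes, Per3 differed in Siah2 KO mice and not detectably in wild type mice. In KOF against KOM it was 3.39-fold higher, or 1.76 on the log2 scale (standard error 0.28, 95% interval 1.16 to 2.36, adjusted p = 0.000968 by edgeR's quasi-likelihood test), and each KOF mouse was above each KOM mouse. It was the 1 member called, in a comparison in which 11.5% of all 9102 genes were called, and it passed with each of the 6 mice left out in turn. In WTF against WTM the log2 fold change of Per3 was −0.38 (95% interval −1.33 to 0.56), and 0 members passed where 1.39% of genes did. The difference between these comparisons is the same quantity as the difference of 2.18 above, and KOF enters both this comparison and that within females. Per2 was also higher in each KOF mouse than in each KOM mouse, by 0.68 on the log2 scale (edgeR adjusted p = 0.227). Among all genes, 14.7% were higher in each KOF than in each KOM mouse.

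Markers of other cells moved with some of these comparisons. The list of red blood cell markers lay between 20.1 and 25.2 CPM in WTF, 8.47 and 19.3 CPM in KOF, 83.9 and 105 CPM in WTM and 103 and 154 CPM in KOM. All of that signal was Alas2, an enzyme of heme synthesis, and the globin genes Hbb-b1, Hbb-b2, Hba-a1 and Hba-a2 were listed at 0. The 4 fat cell markers summed to between 47.5 and 54.5 CPM in WTF and 58.4 and 110 CPM in KOF, nearly all of it from Fabp4, while Adipoq and Plin1 had 0 reads in females. Of 8 markers of Kupffer and other immune cells, 7 were in the tables. Their sum lay between 294 and 435 CPM in WTF and between 259 and 409 CPM in KOF. In males it lay between 62.8 and 285 CPM in WTM and between 77.9 and 161 CPM in KOM. Csf1r was 23.4 to 39.7 CPM in WTF and 18.7 to 23.3 CPM in KOF. The other genes of this immune list overlapped between WTF and KOF. Cd79a and Cd3e were near the floor in both sexes, at 0 in males and at most 0.736 and 0.637 CPM in females. The sums of endothelial, stellate, bile duct and acinar markers overlapped between KOF and WTF, but not each gene in them did. The stellate marker Pdgfrb was 5.1 to 6.14 CPM in WTF and 10.2 to 11.8 CPM in KOF. The bile duct marker Epcam was 0.319 to 1.2 CPM in WTF and 1.81 to 4.79 CPM in KOF. The other genes of these lists overlapped between KOF and WTF. Among all genes tested in females, 23.3% did not overlap between KOF and WTF. The part of cell type markers in the results was not tested.

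A scale that needs no normalization is the make-up of the Period tags within a mouse. Per3 made up 37.3% of the Per1, Per2 and Per3 tags in WTF 1089 (31 of 83 tags, exact 95% binomial interval 27.0% to 48.7%), 13.5% in WTF 1090 and 20% in WTF 1091. In Siah2 KO females it made up 60.8% in KOF 1070 (110 of 181 tags, interval 53.3% to 67.9%), 52.7% in KOF 1104 and 58.8% in KOF 1105. Per3 was thus the majority of the counted Period tags in each Siah2 KO female and in no other mouse. Levels are not compared between genes here, so a majority of tags is not read as a majority of transcripts. The shares use the same counts as the levels above and are not separate evidence. The share of Per3 in males was 18.4%, 20.8% and 34.4% in WTM 1055, 1086 and 1087 and 29.5%, 31.9% and 23.2% in KOM 1075, 1076 and 1081. The share of Per2 was 22.5% ± 2.44 (SD, n = 3) in WTF and 20% ± 1.86 in KOF, and the share of Per1 was 53.9% ± 14.7 in WTF and 22.6% ± 5.43 in KOF. In males Per1 held 53.0% ± 7.06 in WTM and 50.7% ± 7.55 in KOM. A higher Per3 count lowers the other shares, and the levels of Per1 overlapped between WTF and KOF. The summed level of the Period genes was 32.8 ± 6.15 CPM in WTF, 65.6 ± 21.2 CPM in KOF, 38.6 ± 1.08 CPM in WTM and 39.2 ± 7.72 CPM in KOM. The sum includes Per3, and the ranges of KOF, from 49.0 CPM, and of WTF, up to 39.9 CPM, did not overlap. Among single genes, 11.4% were higher in each KOF than in each WTF mouse.

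**Figure D3:**
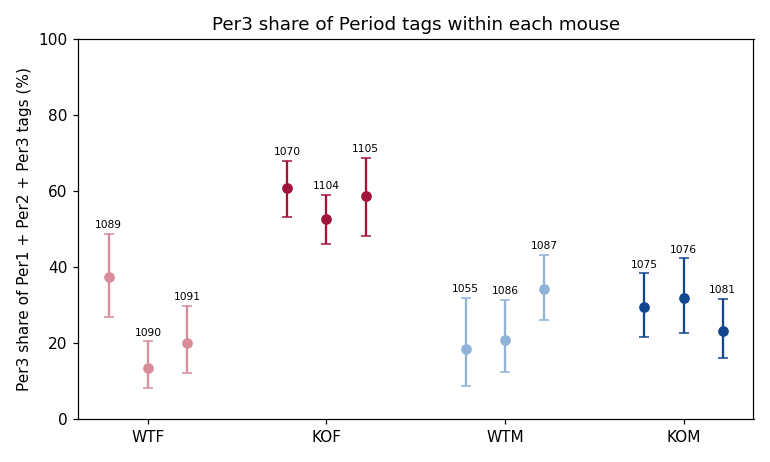
Share of the Per1, Per2 and Per3 tags that were Per3 (percent, y axis) in each mouse, named by its number, by group on the x axis. Vertical lines are exact 95% binomial intervals for counting error. The KOF mice lie between 52.7% and 60.8% and the other 9 mice between 13.5% and 37.3%.

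The members did not vary as a single block. Over the 12 mice, which share these libraries and their depth, log2 CPM of Per2 and Per3 were correlated with Pearson r = 0.81 and Spearman rho = 0.73, the highest of the 10 pairs. After the group means were removed, their r was 0.55. Per1 and Per3 had an r of −0.33 (−0.06 within groups). Within groups, Per1 went with Cry1 (r = 0.63) and with Per2 (r = 0.56), and the other 8 pairs lay between −0.06 and 0.55. The genes most like Per3 over the 12 mice, among 6716 candidates that averaged 10 CPM or more, were Pgk1 (r = 0.90), a glycolytic enzyme, Ost4 (r = 0.89), a subunit of the oligosaccharyltransferase, and Hnrnpd (r = 0.89), an RNA-binding protein. Pgk1 was 27.5 ± 6.76 CPM (SD, n = 3) in WTF and 95.2 ± 6.91 CPM in KOF. Those most like Per2 were Dbr1 (r = 0.90), the enzyme that opens intron lariats, Usp2 (r = 0.87), a deubiquitinase, and Ptgr2 (r = 0.85), a prostaglandin reductase. Those most like Per1 were Angptl4 (r = 0.84), a secreted inhibitor of lipoprotein lipase, Uchl5 (r = 0.82), a deubiquitinase, and Abcd3 (r = 0.79), a peroxisomal transporter. After the group means were removed, r was 0.58 for Pgk1, 0.90 for Ost4 and 0.53 for Hnrnpd with Per3, 0.75 to 0.83 for the genes named with Per2 and 0.76 to 0.81 for those named with Per1. Bzw2, Slc25a12 and Il6st were most like Cry2 (r = 0.83, 0.81 and 0.81), and Baiap2, Sra1 and 9030617O03Rik most like Cry1 (r = 0.87, 0.80 and 0.78), with r within groups from 0.69 to 0.78 and from 0.80 to 0.88.

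The genes that act on or beside the PER and CRY proteins were taken as a list of 42 genes in 5 groups. In females, 38 were tested by edgeR's quasi-likelihood test, 0 passed, and 11 (28.9%) had an unadjusted p under 0.05, 7 in the direction of KOF and 4 in that of WTF, beside the 15.6% of all genes. The median log2 fold change was 0.10 over the list and −0.04 over all genes tested. Without WTF 1091, 8 of 38 genes of the list (21.1%) passed by edgeR, beside 9.64% of all genes in that fit, among them Csnk1a1, Csnk1d, Csnk2a1, Cul1, Ddb1, Ddx5 and Tef. DESeq2 with all females called 2 of 34 (5.88%, beside 3.60% of all genes), Csnk2a1 and Ddx5. In males, 37 were tested, 0 passed, 0 had an unadjusted p under 0.05, and the median was 0.03 beside −0.01 over all genes. The 2 most abundant genes of each group had male log2 values between −0.39 (Clock) and 0.95 (Arntl), and those of Csnk1d, Csnk2a1, Ddb1, Skp1a, Sfpq, Ddx5, Tef and Hlf lay between −0.18 and 0.26.

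Of 10 kinases and phosphatases tested in females, 5 had values above 0 and 5 below, with 3 at an unadjusted p under 0.05. The casein kinases 1 that phosphorylate PER had log2 fold changes in females of 0.07 (Csnk1d) and −0.28 (Csnk1e), with 95% intervals of −0.94 to 1.08 and −1.79 to 1.23. For both, WTF 1091 stood apart. Csnk1d was 123, 126 and 449 CPM in WTF 1089, 1090 and 1091 and 231 to 263 CPM in KOF, and it passed by edgeR without WTF 1091. Csnk1e was 6.5, 6.9 and 0.637 CPM in WTF 1089, 1090 and 1091 and 2.41 to 4.79 CPM in KOF. Csnk2a1, a catalytic subunit of casein kinase 2, was 225, 215 and 153 CPM in WTF 1089, 1090 and 1091 and 398, 355 and 323 CPM in KOF 1070, 1104 and 1105, a difference of 0.85 on the log2 scale (edgeR adjusted p = 0.140). The mean of Csnk2a1 was 397 CPM in WTM and 479 CPM in KOM, so WTF was the lowest group. Csnk2b, the regulatory subunit of casein kinase 2, had a value of opposite sign in females, −0.63 (adjusted p = 0.292). Ppp1ca, a catalytic subunit of protein phosphatase 1, had a log2 difference of 0.84 in KOF against WTF (adjusted p = 0.190) and −0.42 in KOM against WTM, and the female minus male value of 1.26 had an adjusted p of 0.117. It was 1 of 3 genes of the list that passed in KOF against KOM, at 1.41 on the log2 scale (edgeR adjusted p = 0.0015).

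Of 10 genes of the ubiquitin system tested in females, 6 had values above 0 and 4 below, with 3 at an unadjusted p under 0.05. Btrc, the ligase subunit that marks PER for degradation, had a log2 fold change in females of 0.39 (adjusted p = 0.646). Usp2, a deubiquitinase of clock proteins, was 14.4, 44.7 and 19.7 CPM in WTF 1089, 1090 and 1091 and 43.6, 75.5 and 55.4 CPM in KOF 1070, 1104 and 1105. The female groups of Usp2 overlapped by 1 pair of mice, and differed by 1.12 on the log2 scale (edgeR adjusted p = 0.216). Between KOF and KOM, Usp2 passed at 1.25 (adjusted p = 0.0280). Cul1, the scaffold of these ligases, and Mdm2, a ligase of PER2, had log2 fold changes in females of −0.85 and −0.64 (adjusted p = 0.197 and 0.200).

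Of 8 genes tested for proteins found in PER or CRY complexes, 6 had values above 0 in females, 2 of them at an unadjusted p under 0.05. The RNA helicase Ddx5 had the smallest p of the list in females. It was 393, 483 and 354 CPM in WTF 1089, 1090 and 1091 and 896, 817 and 999 CPM in KOF 1070, 1104 and 1105, or 1.13 on the log2 scale (standard error 0.24, edgeR adjusted p = 0.0962). The groups did not overlap, and in males the log2 fold change was −0.08. Wdr5, a histone methyltransferase subunit, had 0.51 in females (adjusted p = 0.300) and was higher in each of the 6 Siah2 KO mice than in each of the 6 wild type mice, which 0.155% of all genes were. With the sexes combined its log2 fold change was 0.41 (adjusted p = 0.866).

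Of the clock activators, Clock was the 1 gene tested in females, with −0.33 on the log2 scale (adjusted p = 0.756), and in males it had −0.39 (adjusted p = 1). Arntl, which encodes BMAL1 and is near its daily low at this hour, had 10, 11 and 4 reads in WTF 1089, 1090 and 1091 and 2, 3 and 2 reads in KOF 1070, 1104 and 1105, and was too low to be tested in females. In males it was 0.95 on the log2 scale (standard error 0.65), and in the fit of all 12 mice the female minus male value was −2.51 (standard error 1.02, adjusted p = 0.270 by edgeR). Npas2 had at most 5 reads in a library and was not tested in either sex.

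The factors that act on D-boxes were in the group of other clock genes. Of the 9 tested in females, 4 had values above 0 and 5 below, with 3 at an unadjusted p under 0.05. D-box cores were found in windows of both Per3 and Per1, whose log2 fold changes in females were 2.31 and −0.24. Whether these factors bear on either gene was not tested. Hlf was 99.6, 141 and 125 CPM in WTF 1089, 1090 and 1091 and 169, 202 and 201 CPM in KOF 1070, 1104 and 1105, a log2 difference of 0.63 (edgeR adjusted p = 0.216). Tef was 208 and 252 CPM in WTF 1089 and 1090, 555 CPM in WTF 1091 and between 418 and 616 CPM in KOF. Its log2 fold change was 0.64 (adjusted p = 0.441), and WTF 1091 alone lay within the KOF range. Dbp had 4, 0 and 1 reads in WTF 1089, 1090 and 1091 and 11, 7 and 5 reads in KOF 1070, 1104 and 1105, too few for the test. The repressor Nfil3 was 6.86, 12.3 and 13.1 CPM in WTF and 5.68, 4.05 and 7.22 CPM in KOF, in the same order of mice, or −0.97 on the log2 scale (adjusted p = 0.268). Bhlhe41, a repressor at the E-box, had 1.44 in females (adjusted p = 0.203). Its mean was 4.8 CPM in WTF, 13.1 CPM in KOF, 19.5 CPM in WTM and 18.5 CPM in KOM. Of the 37 genes of the list tested in KOF against KOM, 8.11% were called, beside 11.5% of all genes.

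**Figure D4:**
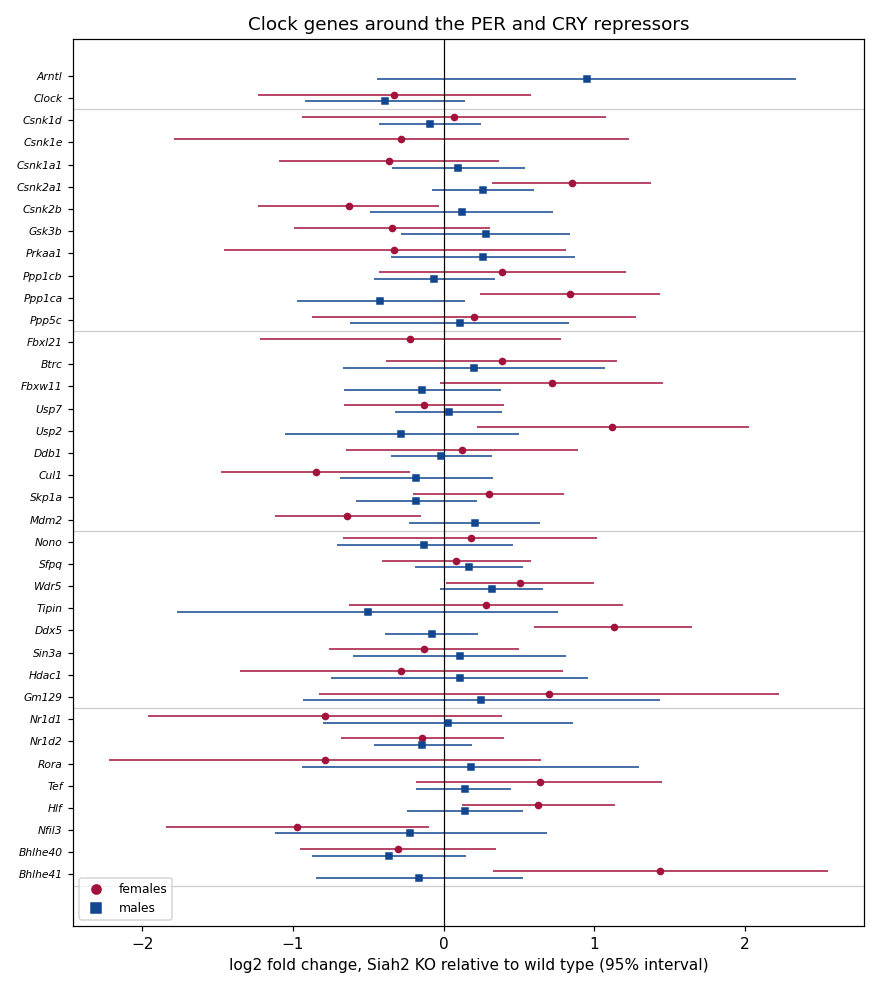
Log2 fold change (x axis, Siah2 KO relative to wild type, with 95% intervals) of tested genes of the clock list that are reported here, in females and males, 1 gene per line, with grey lines between the 5 groups. No gene passed an adjusted p of 0.05 in either sex by edgeR. Ddx5 at 1.13, Usp2 at 1.12 and Bhlhe41 at 1.44 are the highest values in females.

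Between wild type females and males, 5 of the 39 genes tested had an unadjusted p under 0.05, or 12.8% beside 15.2% of all genes, and 0 passed by edgeR's quasi-likelihood test. Bhlhe41 had −2.04, Csnk2a1 −0.98 and Ddx5 −0.83, each lower in each WTF than in each WTM mouse, as 11.2% of all genes were. Fbxl21, with 1 to 5 reads per WTM mouse, had 2.18, and Cul1 had 0.68. The adjusted p values by edgeR were 0.0947, 0.0834, 0.135, 0.192 and 0.295 in this order. Without WTF 1091, 8 of 38 genes of the list (21.1%) passed in this comparison, beside 7.73% of all genes. For the female minus male response to SIAH2 loss, 7 of 39 genes had an unadjusted p under 0.05, or 17.9% beside 14.1% of all genes. Of the 39, 0 passed. Among the 7 were Ddx5 at 1.20 (edgeR adjusted p = 0.0786), Bhlhe41 at 1.59, Usp2 at 1.39, Ppp1ca and Mdm2 (−0.84). Arntl, at −2.51, was also among them, with 2 or 3 reads per KOF mouse and 1 to 10 per WTM mouse. Without WTF 1091, 5 of 39 (12.8%) passed for that response, beside 5.15% of all genes. With the sexes combined, 5 of 37 had an unadjusted p under 0.05 (13.5% beside 5.65% of all genes, namely Cul1, Wdr5, Ddx5, Hlf and Nfil3), and 0 passed. Clock, Csnk2b, Gsk3b, Prkaa1, Usp7, Mdm2 and Sfpq had values between −0.98 and −0.50 in KOF against KOM, with an unadjusted p under 0.05 and adjusted p values between 0.0507 and 0.158. Csnk2a1 had −0.41 and Ddx5 0.36 there, so that 12 of 37 genes (32.4%) had an unadjusted p under 0.05, beside 26.1% of all genes.

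Whether Per3 passed in females depended on the setting, while its log2 fold change moved little. It lay between 2.10 and 2.71 under each setting tried. It passed by DESeq2, with all 12 mice in 1 fit (adjusted p = 0.00582), without a filter on low counts (5.01e-08) and without WTF 1091. It did not pass by limma-voom (0.0793), with RLE scaling (0.0791) or with all libraries thinned to 1293688 reads (0.0777).

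**Figure D5:**
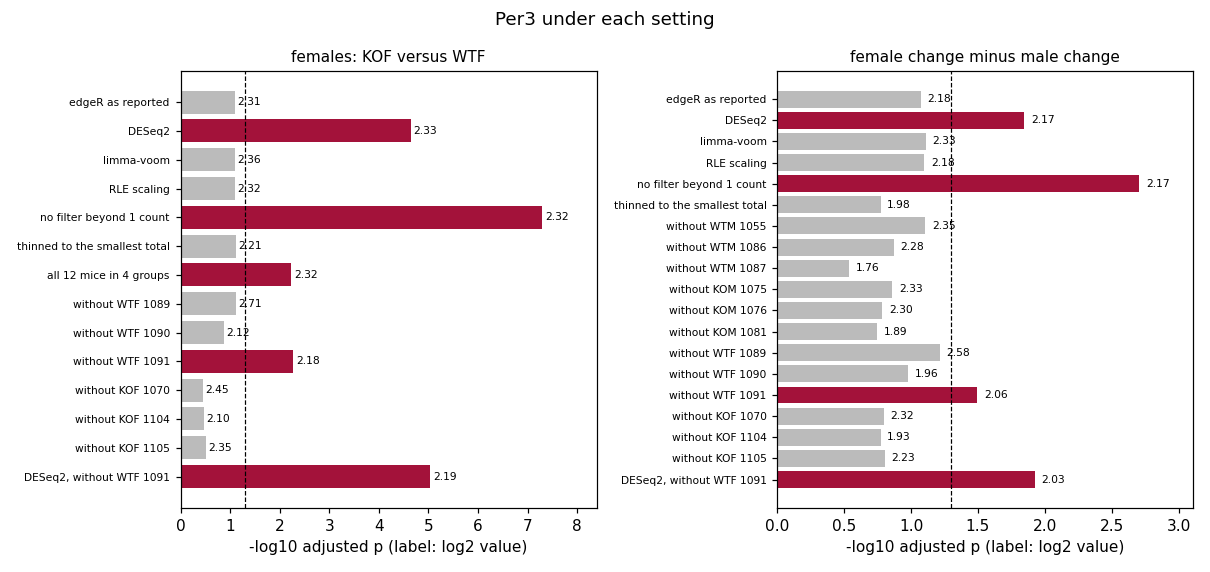
Bars show −log10 of the adjusted p of Per3 (x axis) under each setting (y axis), in females on the left and for the female minus male difference on the right, with the log2 value printed beside each bar. Red bars pass the threshold of 0.05, marked by the dashed line. The log2 value stays between 2.10 and 2.71 in females and between 1.76 and 2.58 for the difference.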

How the data were processed

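Per the file headers and values, the authors deposited a table of raw counts per sex, with no normalization. The study's methods describe trimming, mapping and analysis on Illumina's BaseSpace platform. The submitters' processing notes name STAR, DESeq and mm10. The annotation was not stated. Columns were tied to samples through mouse numbers. The 27 symbols that look like dates stayed in the totals.

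Low counts were removed with filterByExpr and totals scaled by TMM, and each comparison was tested over all genes by the quasi-likelihood F test of edgeR 4.0.16 in R 4.3.3 (two-sided, Benjamini-Hochberg adjustment, threshold 0.05). DESeq2 1.42.0 and limma 3.58.1 (limma-voom) were alternatives, with RLE scaling, no filter beyond 1 count, libraries thinned to the smallest total, a fit of all 12 mice and each mouse left out in turn. The comparison over both sexes had no term for sex, which was a further alternative. DESeq2 without WTF 1091 was added after the data were seen. Standard errors are those implied by the F statistic. CPM in all groups came from 1 TMM scaling of the 12 libraries, and log2 CPM used a prior count of 3. The procedure was tested on simulated data with the same dispersion for all genes and no outlying library. That setting differs from the females, which include WTF 1091. Figures used Python 3.11.15 and matplotlib 3.10.9.

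Members, clock lists, motifs and markers were chosen with earlier results of these data known. Members were named in each comparison. From the clock list, genes with an unadjusted p under 0.05 were named and, in a group with none, its 2 most abundant genes. Csnk1e, Csnk1d, Btrc, Tef, Dbp and Npas2 in females were named besides for their role, chosen after their values were seen. Some genes of the list enter its counts and are not reported here. Ciart entered as Gm129. For each member the 3 genes with the highest Pearson r over the 12 mice and a mean of at least 10 CPM were named.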

Additional observations from a re-analysis of the deposited data

How the results depend on the processing

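Of 388 recomputed log2 fold changes of members, 348 kept their direction and side of the threshold, 9 (all of Per3) newly passed it and 31 changed sign, none of them called. The cause was not tested. In females, the number of genes called, 0 by edgeR, was 301 by DESeq2, 484 without a filter, 427 with 12 mice in 1 fit and 831 by DESeq2 without WTF 1091, with 1 member, Per3, called in each. With each mouse left out it was 0 to 936 genes and 0 to 1 member. In males the 0 genes became 6 by DESeq2, 29 without a filter and 0 to 3 with mice left out. With the sexes combined the 1 gene became 0 by limma-voom and 0 to 1 with mice left out. For the difference between the sexes, 25 genes became 265 by DESeq2, 325 without a filter, 644 by DESeq2 without WTF 1091 and 16 with thinned libraries, the first 3 with 1 member, and 0 to 522 genes with 0 to 1 member with mice left out. WTF against WTM gave 130 genes, 338 by DESeq2, 536 without a filter, 505 with 12 mice, 737 by DESeq2 without WTF 1091 and 43 to 740 with mice left out, and KOF against KOM gave 1044, 352 with 12 mice and 486 to 1056 with mice left out.

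Signs changed to these values. They were, by limma-voom, Cry1 in females (−0.03) and in KOF against KOM (−0.011), and with thinned libraries, Per1 in females (0.00078), in the difference (0.26) and in KOF against KOM (0.02), Cry2 in males (0.057) and in WTF against WTM (−0.012), and Per2 with the sexes combined (−0.022). With mice left out, the ranges that crossed 0 were −0.79 to 0.12 for Per1 and −0.29 to 0.82 for Cry1 in females. In males they were −0.15 to 0.0084 for Per1, −0.24 to 0.19 for Per2, −0.015 to 0.54 for Per3 and −0.3 to 0.032 for Cry2. With the sexes combined Per1 ranged from −0.28 to 0.021. For the difference, Per1 ranged from −0.77 to 0.16 and Cry1 from −0.78 to 0.34. In WTF against WTM, Per1 ranged from −0.47 to 0.087 and Cry2 from −0.031 to 0.14, and in KOF against KOM, Per1 ranged from −0.9 to 0.016 and Cry1 from −0.21 to 0.91. Group levels of members moved by less than 1 SD under RLE scaling, no scaling or with a mouse left out. No paired analysis was possible because the groups compared share no mouse numbers. Depth and, in KOF, the spread between mice limit Cry1, with 4 to 19 reads per mouse. Nothing in the sources shows that the mice of a group were independent of litter, so p values measure the spread between these samples.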
